A study of Mus with 51 samples.

Results

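The genes described here encode the mitochondrial respiratory chain and the ATP synthase. They were taken by symbol from the count table: every Nduf, Sdh, Uqcr, Cox4 to Cox8 and Atp5 gene of the nucleus, and every mt-Nd, mt-Co, mt-Atp and mt-Cytb gene of the mitochondrial DNA, without symbols holding "-ps". The rule gave 104 of the 34923 genes in the table, 91 nuclear and 13 mitochondrially encoded. Of these, 101 had enough counts to be tested, 88 nuclear and 13 mitochondrially encoded. Cox7b2, Cox8b and Ndufa4l2 did not. The rule reads symbols and no measured value, but it was set with earlier results of these data known.

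The cells were lymph node T cells of a B10.A mouse strain, 5C.C7, that lacks functional Rag2 and carries 1 transgenic T cell receptor, specific for a peptide of moth cytochrome c (MCC). The T cells of every group share this genotype. MCC CD69-hi and MCC CD69-lo are the CD69-high and CD69-low sorts of cells given MCC, MCC+GP CD69-hi and MCC+GP CD69-lo are those of cells given MCC with GP, the self-peptide of the study, and GP and NP cells received GP or no peptide. CD69 is a surface receptor that appears soon after a T cell is stimulated. Each phenotype was collected at 1, 6 and 24 h, which makes 18 groups and 51 libraries of poly-adenylated RNA, with 3 libraries per group and 2 each in MCC CD69-lo, GP and NP at 6 h. The labels give neither the age of the mice nor whether replicates came from separate animals, so the p-values reflect the spread of these samples and no more.

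The respiratory chain passes electrons from NADH and succinate to oxygen through complexes I to IV and stores the energy as a proton gradient, which complex V, the ATP synthase, uses to make ATP. Complexes I, III, IV and V are built from subunits of both genomes, whereas complex II is wholly nuclear. Mitochondrial genes are transcribed as long molecules from both strands of a small circular DNA. These are cut into shorter transcripts, mostly at the tRNAs between genes. Each nuclear subunit has its own gene and is imported as protein. Naive T cells have few and small mitochondria, and activated T cells enlarge this compartment before they divide.

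By complex, the members were 51 genes of complex I (44 nuclear, 7 mitochondrial), 4 of complex II, 9 of complex III (8 and 1), 22 of complex IV (19 and 3) and 18 of complex V (16 and 2). Assembly factors that carry a member's symbol were counted with their complex, so Atp5sl, whose RefSeq symbol is Dmac2, stands with complex I, and Ndufa4 with complex IV. In RefSeq (GRCm38.p6) the 91 nuclear members lie on 19 chromosomes, with at most 10 on any one. The 13 mitochondrial genes lie on the mitochondrial chromosome (MT), from mt-Nd1 at MT:2751-3707 to mt-Cytb at MT:14145-15288.

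Totals ran from 29030 to 10278776 counts per library, with a median of 5436653. The shallowest were the 24 h libraries of MCC+GP CD69-lo (29030 to 301455 counts). At 1 h the libraries of MCC CD69-hi held 852100 to 3347000 counts and those of MCC+GP CD69-hi 930200 to 1105000. Those of NP held 4686000 to 6953000 at that time. A list of 8 T cell genes summed to 4670 ± 530, 5802 ± 776 and 4696 ± 145 CPM in MCC CD69-hi at 1, 6 and 24 h (SD, n = 3 each) and to 4701 ± 378, 4240 ± 13.8 and 4721 ± 381 CPM in NP (n = 3, 2 and 3). CPM is a count relative to the size of its library, TMM-adjusted for single genes and unadjusted in these marker sums. The 8 markers of B cells came to 1485 ± 366, 638.5 ± 266.7 and 55.0 ± 34.1 CPM in MCC CD69-hi, against 182 ± 45.1, 179 ± 67.7 and 192 ± 58.3 CPM in NP. The 9 markers of myeloid and dendritic cells came to 258 ± 70.7, 120 ± 48.8 and 47.4 ± 7.89 CPM in MCC CD69-hi and to 61.3 ± 17.5, 72.8 ± 58.3 and 117 ± 91.4 CPM in NP. Both sums were thus higher in MCC CD69-hi than in NP at 1 h and lower at 24 h. Which cells this RNA came from was not tested. Its part in the results was not tested either, except in fits that took B cell RNA into account. The B cell sums of MCC CD69-hi and NP overlapped at no time. Such a fit therefore cannot clearly tell the part of B cell RNA from that of the peptide and the sort.

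Taken as sums, the nuclear members stood higher at each later time in the CD69-high cells, and the mitochondrial members did not. Levels are given per gene length as TPM, the relative number of transcripts scaled to sum to the same total in each library. The nuclear members summed to 8173 ± 278, 10410 ± 554 and 16230 ± 65.5 TPM in MCC CD69-hi at 1, 6 and 24 h (SD, n = 3 each), against 7381 ± 1048, 7171 ± 492 and 6548 ± 860 TPM in NP (n = 3, 2 and 3). In MCC CD69-lo the sums were 7508 ± 606, 6320 ± 949 and 9003 ± 635 TPM. The lowest MCC CD69-hi library of 24 h (16170 TPM) lay above the highest NP library of any time.

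The 13 mitochondrial members summed to 14190 ± 1292, 11420 ± 882 and 12300 ± 975 TPM in MCC CD69-hi, and to 11880 ± 2820, 11160 ± 4405 and 6998 ± 2084 TPM in NP. At 1 and 6 h the libraries of the groups overlapped. At 24 h they did not, and the difference came with a lower level in NP at 24 h than at 1 h rather than with a higher level in MCC CD69-hi. The 2 NP libraries of 6 h lay far apart, at 14280 and 8048 TPM.

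The ratio of mitochondrial to nuclear TPM joined these patterns. It was 1.90, 1.65 and 1.66 in the MCC CD69-hi libraries of 1 h, 1.07, 1.10 and 1.12 at 6 h and 0.811, 0.695 and 0.767 at 24 h. In NP it was 1.81, 1.47 and 1.52 at 1 h, 1.90 and 1.18 at 6 h and 1.04, 0.882 and 1.24 at 24 h. MCC CD69-hi lay below NP without overlap at 6 and 24 h, but not at 1 h, and with 3 libraries against 3 or 2 an exact permutation test cannot pass 0.05. In GP cells the ratio was 1.62 ± 0.124, 1.67 ± 0.149 and 1.15 ± 0.0284, and in MCC CD69-lo 1.64 ± 0.160, 1.63 ± 0.120 and 1.05 ± 0.0625, so a lower ratio at 24 h than at 1 h was also seen in GP, NP and CD69-low cells.

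**Figure D1:**
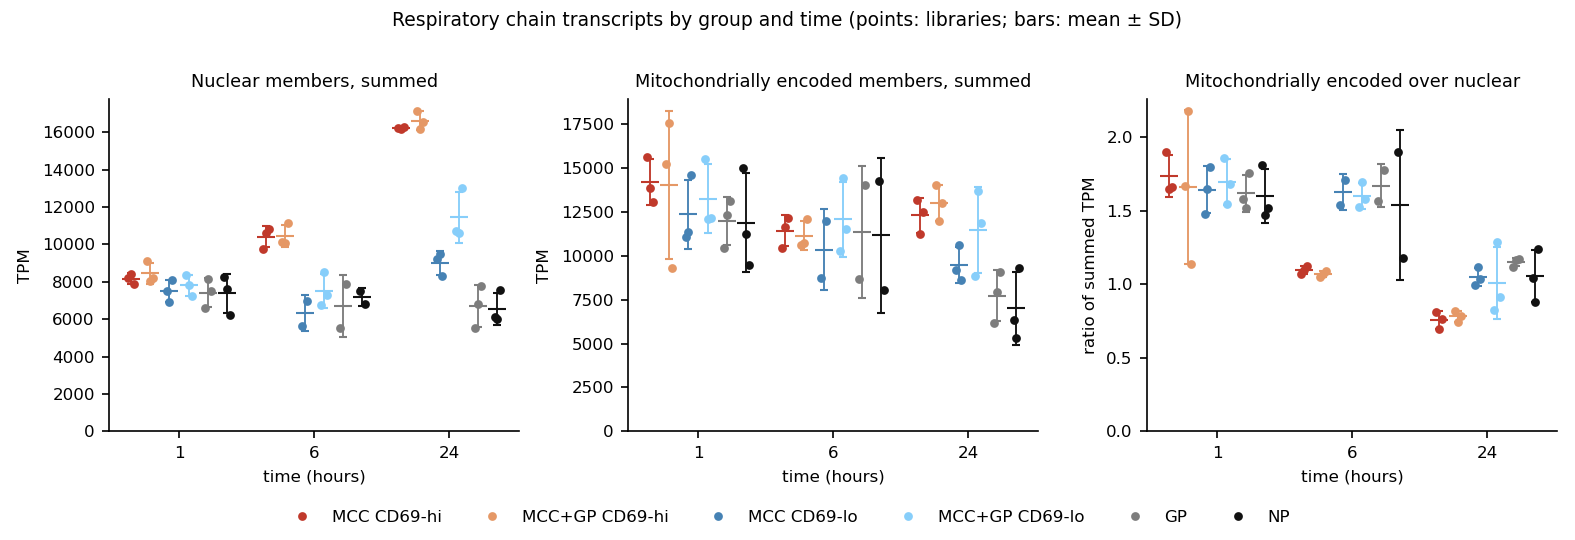
Summed TPM of the nuclear members (left), of the mitochondrially encoded members (middle) and their ratio (right) in each library, by labelled time in hours, with mean and SD per group. In both CD69-high groups the nuclear sum reached about the same level at 24 h (16230 TPM in MCC CD69-hi and 16620 TPM in MCC+GP CD69-hi) and the ratio was the lowest of the series.

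MCC CD69-hi against NP shows the members in cells that responded to the agonist peptide, and the nuclear members rose in most cases. At 24 h 75 of 88 nuclear members were higher in MCC CD69-hi and 4 were lower, with a median log2 fold change of 1.47. Over all 17211 genes tested, 57.8% were called at 24 h, 29.2% higher and 28.7% lower, and the median was -0.14. At 6 h 53 nuclear members were higher and 6 lower (median 0.73), where 46.7% of all genes were called, 23.2% higher and 23.6% lower, with a median of 0.00. At 1 h 6 were higher and 8 lower (median 0.16), with 29.4% of all genes called, 12.4% higher and 17% lower. Calls are from edgeR's quasi-likelihood test at a false discovery rate of 0.05 over all genes. The balance at 1 h hung on the scaling: with RLE size factors 18 nuclear members were higher and 3 lower, and in a fit with a B cell RNA term 3 and 2.

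Most nuclear members shared a few time courses of calls. Of the 88 nuclear members, 46 were not called at 1 h and higher at 6 and 24 h, 19 were higher at 24 h alone, and 6 were higher at all 3 times (Ndufaf4, Ndufaf1, Ndufb6, Atp5g3, Cox7a2 and Cox7b). Cox7a2l and Atp5sl were lower at all 3 times. Cox6a2, Cox7a1, Ndufa3, Ndufa13, Ndufaf3 and Atp5s were called at none. Of all genes 12.4%, 23.2% and 29.2% were higher at 1, 6 and 24 h. The share of all genes with each pattern was not counted. These patterns put calls side by side. Whether a change differed between times was tested separately and is given further on.

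Among the nuclear genes, those of complex V had the largest summed level in MCC CD69-hi at 24 h and the largest rise in their sum over NP. In NP at 24 h the sum of complex I was about as large (1990 ± 212 TPM). Its 16 nuclear genes summed to 6756 ± 47.7 TPM in MCC CD69-hi at 24 h and 1984 ± 276 TPM in NP (SD, n = 3 each), and 15 of the 16 were higher, 0 lower, with a median log2 fold change of 1.69. The 5 genes of the catalytic F1 head were all higher (median 1.74), as were the 10 of the membrane part and stalk (median 1.64). Atp5s, a nuclear-encoded factor grouped with neither, was not called (-0.93, adjusted p = 0.057).

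Atp5b, the catalytic beta subunit, was the most abundant nuclear member in MCC CD69-hi at 24 h, at 2547 ± 36.4 TPM against 477 ± 79.1 TPM in NP. Its libraries read 1913, 1821 and 1830 CPM in MCC CD69-hi at 24 h and 313, 263 and 337 CPM in NP. The groups were far apart, and the log2 fold change was 2.61 ± 0.17 (SE, adjusted p = 1.11e-20). It had risen by 6 h (1.75 ± 0.19), when MCC CD69-hi libraries held 1228, 1207 and 1284 CPM and NP libraries 380 and 357 CPM. Atp5a1, the alpha subunit that alternates with it in the head, read 1373, 1218 and 1254 CPM in MCC CD69-hi at 24 h, against 338, 291 and 362 CPM in NP (1.96 ± 0.20).

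The 3 genes that encode the identical c subunit of the rotor, Atp5g1, Atp5g2 and Atp5g3, differ only in their import sequences, and they rose by different amounts. Atp5g1 (chromosome 11, 96072793 to 96075694) had the largest rise of all nuclear members above 5 CPM. It read 181, 186 and 196 CPM in MCC CD69-hi at 24 h and 12.9, 17.5 and 20.5 CPM in NP, a clear separation of the groups (3.46 ± 0.25, adjusted p = 1.97e-17). At 6 h it read 134, 157 and 154 CPM in MCC CD69-hi and 21.4 and 16.4 CPM in NP (2.97 ± 0.28, adjusted p = 6.9e-13). At 1 h the libraries overlapped, with 40.9, 71.1 and 38.3 CPM in MCC CD69-hi and 38.9, 32.4 and 21.2 CPM in NP, and it was not called (adjusted p = 0.0659).

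Atp5g3 read 354, 350 and 344 CPM in MCC CD69-hi at 24 h, against 75.6, 77.0 and 75.9 CPM in NP (2.198 ± 0.18). Atp5g2 read 150, 134 and 139 CPM in MCC CD69-hi and 41.6, 47.1 and 50.4 CPM in NP (1.60 ± 0.18). Of the summed TPM of the 3 genes, Atp5g1 made up 6.41 ± 2.06%, 12.5 ± 0.196% and 9.48 ± 0.525% in MCC CD69-hi at 1, 6 and 24 h (SD, n = 3 each), against 5.29 ± 0.656%, 3.65 ± 0.0129% and 3.56 ± 0.647% in NP (n = 3, 2 and 3). Its share was thus highest at 6 h in MCC CD69-hi, with no library of NP near it.

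Complex III had the highest median change. All 8 of its nuclear genes were higher at 24 h (median 2.24), and 7 of 8 at 6 h (median 1.19). Their summed level at 24 h was 1746 ± 56.1 TPM in MCC CD69-hi and 568 ± 98.0 TPM in NP. At 1 h it was 942 ± 44.9 TPM in MCC CD69-hi and 767 ± 125 TPM in NP (SD, n = 3 each). The gap at 24 h thus came with a higher level in MCC CD69-hi and also with a lower mean in NP than at 1 h. The NP libraries of these times overlapped in this sum (633 to 880 TPM at 1 h and 488 to 677 TPM at 24 h). Uqcrq, a small subunit beside cytochrome b, read 188, 185 and 191 CPM in MCC CD69-hi at 24 h and 29.6, 18.3 and 27.0 CPM in NP (2.91 ± 0.24, adjusted p = 1.04e-14). Uqcrfs1, the Rieske iron-sulfur protein that takes electrons from ubiquinol, read 195, 162 and 186 CPM in MCC CD69-hi, against 44.0, 35.2 and 45.3 CPM in NP (2.12 ± 0.21). Neither gene had overlapping libraries.

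Uqcrc2, a core protein of complex III, turned over the times. It read 59.1, 55.9 and 56.6 CPM in MCC CD69-hi at 1 h and 83.1, 84.8 and 64.7 CPM in NP, a fall of small size (-0.44 ± 0.17, adjusted p = 0.0396) that 11 of 14 alternative settings did not call. At 6 and 24 h it was higher by 1.06 ± 0.18 and 1.82 ± 0.16. Its partner Uqcrc1 was not called at 1 h (0.04) and was higher at 6 and 24 h (0.68 and 1.35).

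Complex IV, cytochrome c oxidase, had 12 of 16 tested nuclear genes higher and 2 lower at 24 h (median 1.74), and 10 and 1 at 6 h (median 0.96). The structural subunits rose together. Cox5a, which lies on the matrix side of the enzyme, read 57.7, 52.3 and 68.7 CPM in MCC CD69-hi at 24 h and 15.7, 11.9 and 13.7 CPM in NP (2.12 ± 0.30), and Cox5b rose by 1.84 ± 0.23. Ndufa4, named for complex I but a subunit of complex IV, read 128, 125 and 130 CPM in MCC CD69-hi, against 22.3, 25.0 and 28.4 CPM in NP (2.33 ± 0.21). Cox4i1, the main regulatory subunit, rose less (0.95 ± 0.18), as did Cox6c (1.29 ± 0.18).

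Cox7a2l (chromosome 17, 83501917 to 83514333) went against its complex. It encodes a Cox7a relative that ties complex III to complex IV in supercomplexes. Its libraries read 156, 141 and 165 CPM in MCC CD69-hi at 1 h and 271, 267 and 180 CPM in NP. At 6 h they read 51.7, 60.3 and 76.3 CPM in MCC CD69-hi and 234 and 179 CPM in NP, and at 24 h 84.2, 81.4 and 80.0 CPM in MCC CD69-hi and 228, 222 and 317 CPM in NP. The groups overlapped at no time. The log2 fold changes were -0.63 ± 0.24 (adjusted p = 0.0437), -1.71 ± 0.26 (3.43e-07) and -1.64 ± 0.24 (1.03e-07). At 1 h the call was lost in 9 of 14 alternative settings, with an adjusted p of up to 0.272 in the fit with a B cell RNA term, and at 6 and 24 h in none of 13 and 14.

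Cox7a2, the ordinary form of that subunit in complex IV, moved the other way. It read 37.8, 59.4 and 46.4 CPM in MCC CD69-hi at 1 h, against 29.2, 27.6 and 19.5 CPM in NP, and 81.8, 85.5 and 78.4 CPM in MCC CD69-hi at 24 h, against 22.5, 21.7 and 23.8 CPM in NP. The log2 fold changes at 1, 6 and 24 h were 0.86 ± 0.22, 1.11 ± 0.23 and 1.85 ± 0.20, all called. The ratio of Cox7a2 to Cox7a2l counts was 0.315 ± 0.0946, 0.862 ± 0.185 and 1.00 ± 0.0436 in MCC CD69-hi (SD, n = 3 each) and 0.107 ± 0.00274, 0.123 ± 0.0196 and 0.0905 ± 0.0132 in NP (n = 3, 2 and 3). In MCC CD69-lo it was 0.130 ± 0.0143, 0.151 ± 0.00116 and 0.199 ± 0.0242. A count ratio does not correct for length, so its change, not its size, is what these values show.

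Tissue isoforms of complex IV, which muscle, testis or lung use in place of the common subunits, were at or near the lowest counts. Cox4i2, the lung and hypoxia form of Cox4, read 5.51, 4.03 and 2.87 CPM in MCC CD69-hi at 6 h and 0.494 and 0 CPM in NP (3.90 ± 1.13, adjusted p = 0.00328), a call that was lost without NP 6 h replicate 2 (adjusted p = 0.0819). At 24 h no count was found in NP, and MCC CD69-hi, with 15 counts, was at least 4.11-fold higher against a floor of 3 counts over the group. Cox6b2, the testis form, had no count in the 3 MCC CD69-hi libraries of 1 h and 0.768, 2.40 and 1.71 CPM in NP. At 24 h it was lower (-2.26 ± 0.94, adjusted p = 0.0347), on 6 counts in MCC CD69-hi and 25 in NP. Cox7a1, a muscle form, was called at no time.

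Complex II, succinate dehydrogenase, also belongs to the citric acid cycle. Its 4 genes were all higher at 24 h (median 1.39), yet its sum rose least of the 5 complexes, to 901 ± 26.5 TPM in MCC CD69-hi against 592 ± 58.9 TPM in NP. Sdha (chromosome 13, 74322255 to 74350240), the flavoprotein that oxidises succinate, read 179, 157 and 187 CPM in MCC CD69-hi at 1 h and 247, 239 and 227 CPM in NP. It was still lower at 6 h, with 194, 176 and 212 CPM in MCC CD69-hi and 275 and 274 CPM in NP, and higher at 24 h, with 364, 335 and 330 CPM in MCC CD69-hi and 240, 260 and 268 CPM in NP. No groups overlapped. The log2 fold changes were -0.44 ± 0.16 (adjusted p = 0.0334), -0.50 ± 0.17 (0.0135) and 0.42 ± 0.16 (0.0173), and these small changes were lost in 9 of 14, 3 of 13 and 3 of 14 alternative settings.

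The other 3 genes of complex II rose without such a turn. Sdhd, a membrane anchor, read 160, 139 and 159 CPM in MCC CD69-hi at 24 h and 33.6, 29.4 and 34.3 CPM in NP (2.23 ± 0.19, adjusted p = 1.16e-15). Sdhb, the iron-sulfur subunit, rose by 1.39 ± 0.17 and Sdhc, the other anchor, by 1.40 ± 0.17. At 6 h the 3 genes had log2 fold changes of 0.53 to 0.85, all called. Because Sdha had the most counts of the 4, the summed TPM of complex II at 6 h was lower in MCC CD69-hi (log2 ratio -0.41) although 3 of its 4 genes were higher.

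Complex I had 36 of 44 nuclear genes higher and 2 lower at 24 h (median 1.18), and 20 higher and 4 lower at 6 h (median 0.62). Its sum was 3785 ± 54.3 TPM in MCC CD69-hi at 24 h and 1990 ± 212 TPM in NP. The 7 core subunits, which carry the flavin and iron-sulfur centres, were higher in 6 cases (median 0.90). The 29 accessory subunits were higher in 24 and lower in 1 (median 1.22), and the 8 assembly factors higher in 6 and lower in 1 (median 1.38).

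Among the core subunits, Ndufv1, which binds NADH, read 132, 128 and 122 CPM in MCC CD69-hi at 24 h and 59.3, 66.3 and 56.8 CPM in NP (1.07 ± 0.16). Ndufs1, the largest subunit, read 114, 105 and 95.6 CPM in MCC CD69-hi, against 73.0, 79.8 and 58.6 CPM in NP (0.58 ± 0.19, adjusted p = 0.0063). Ndufs7 alone of the core was not called at 24 h (0.32, adjusted p = 0.0881).

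Ndufaf4 (chromosome 4, 24898083 to 24905001), an assembly factor of complex I, had the largest rise at 6 h among members above 5 CPM. It read 39.4, 30.3 and 29.7 CPM in MCC CD69-hi at 1 h, 111, 145 and 118 CPM at 6 h and 94.1, 92.9 and 101 CPM at 24 h. In NP it read 21.5, 19.6 and 19.5 CPM at 1 h, 12.2 and 16.7 CPM at 6 h and 15.5, 14.5 and 12.9 CPM at 24 h. The groups were separate at each time, with log2 fold changes of 0.72 (adjusted p = 0.0167), 3.11 ± 0.27 (2.83e-15) and 2.75 ± 0.23 (3.25e-16). At 1 h the adjusted p became 0.199 in the fit with a B cell RNA term.

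Among accessory subunits Ndufa12 rose most at 24 h, with 105, 101 and 98.5 CPM in MCC CD69-hi and 12.5, 12.2 and 16.4 CPM in NP (2.88 ± 0.25). Ndufab1, the mitochondrial acyl carrier protein, which also serves lipoate synthesis, read 31.1, 46.0 and 41.6 CPM in MCC CD69-hi at 6 h and 11.4 and 12.7 CPM in NP (1.72 ± 0.26), and its rise at 24 h was 0.84 ± 0.22. Ndufb8, often used to detect assembled complex I, rose by 0.90 ± 0.25 at 6 h and 1.27 ± 0.22 at 24 h.

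Some members of complex I fell, most of them at 6 h. Ndufv3, an accessory subunit near the NADH site, read 9.59, 13.2 and 14.9 CPM in MCC CD69-hi at 6 h and 34.3 and 28.3 CPM in NP (-1.31, adjusted p = 3.82e-05), and at 24 h it was not called (-0.32). Ndufa6 read 20.4, 28.2 and 30.4 CPM in MCC CD69-hi at 6 h and 64.2 and 53.6 CPM in NP (-1.16), and at 24 h it was not called (-0.22). Ndufb10 was lower at 6 h, with 17.6, 19.0 and 20.7 CPM in MCC CD69-hi and 34.7 and 28.5 CPM in NP (-0.73, adjusted p = 0.00656), and higher at 24 h (0.86).

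Atp5sl, which takes part in the assembly of complex I, was lower throughout. It read 32.3, 23.3 and 25.0 CPM in MCC CD69-hi at 1 h, 33.2, 36.6 and 35.5 CPM at 6 h and 23.5, 24.8 and 26.0 CPM at 24 h. In NP it read 73.9, 67.8 and 82.1 CPM, then 61.4 and 69.7 CPM, then 79.4, 85.1 and 81.3 CPM. The log2 fold changes were -1.44, -0.90 and -1.72, and at 1 and 24 h the call held in all 14 alternative settings. Ndufb2, an accessory subunit of low count, was the other gene of complex I to fall at 24 h, with 4.08, 2.45 and 3.81 CPM in MCC CD69-hi and 9.45, 6.59 and 6.53 CPM in NP (-1.11, adjusted p = 0.00386).

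Set beside each other at 24 h, the log2 ratios of summed nuclear TPM, MCC CD69-hi over NP, were 0.93 for complex I, 0.61 for II, 1.62 for III, 1.11 for IV and 1.77 for V. At 6 h they were 0.24, -0.41, 0.92, 0.38 and 0.92 in the same order of complexes. By sums, complexes III and V were the highest at both times and complex II the lowest. The order depended on the measure: from the median TPM over a complex's genes the ratios at 24 h were 1.36, 1.53, 2.03, 1.22 and 1.39, and at 6 h 0.54, 0.43, 1.19, 0.39 and 0.47, so that complex III was highest and complex IV lowest. These ratios are descriptions, since the difference between complexes was not tested, and the complexes share libraries.

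**Figure D2:**
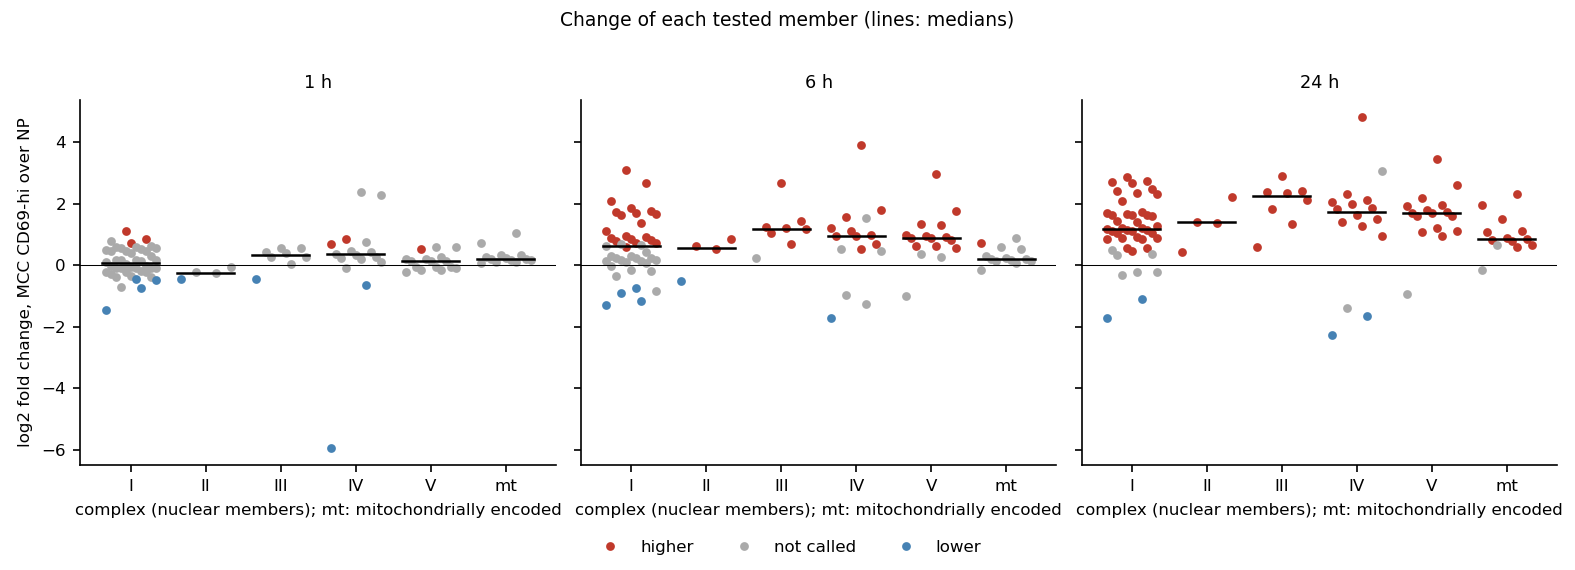
Log2 fold change of each tested member in MCC CD69-hi over NP at 1, 6 and 24 h, with nuclear members by complex and the mitochondrially encoded members as mt. Red points were called higher, blue points lower and grey points not called, lines are medians, and the point near -6 at 1 h is the fitted value of Cox6b2, a gene with no count in MCC CD69-hi.

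**Figure D3:**
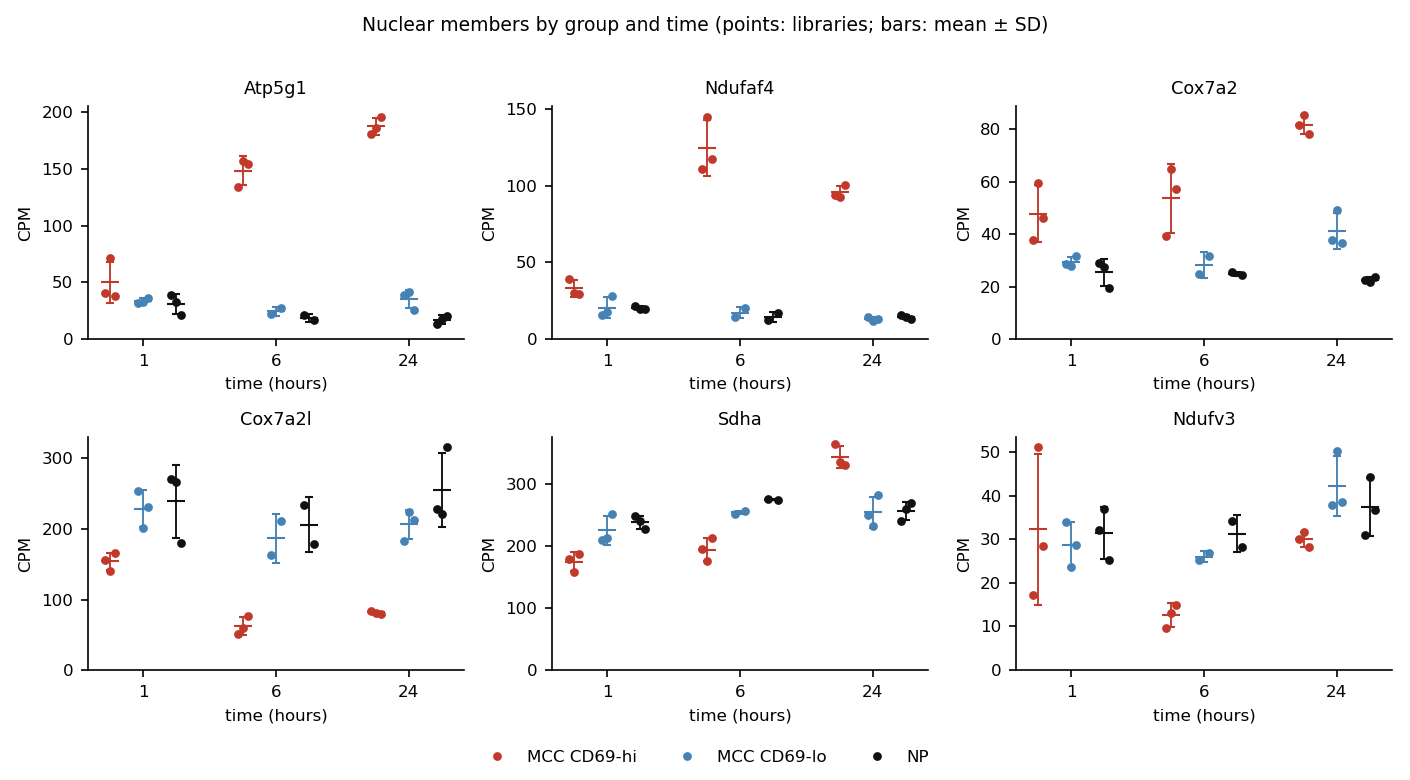
CPM of 6 nuclear members in each library of MCC CD69-hi, MCC CD69-lo and NP by time in hours, with mean and SD. Atp5g1, Ndufaf4 and Cox7a2 stood higher in MCC CD69-hi at 24 h, Cox7a2l stood lower at 6 and 24 h, Sdha was lower at 1 and 6 h and higher at 24 h, and Ndufv3 was lower at 6 h.

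The mitochondrially encoded members were called mostly at 24 h, with a smaller median than the nuclear ones. Of 13, 0 were called at 1 h in MCC CD69-hi against NP (median 0.21, 0 at an unadjusted p under 0.05 and 0 with DESeq2), 1 was higher at 6 h (median 0.22) and 11 were higher at 24 h (median 0.84). None was lower. The shares of all genes called were 29.4%, 46.7% and 57.8% at 1, 6 and 24 h, with 12.4%, 23.2% and 29.2% higher. The share of mitochondrial members called was thus below that of all genes at 1 and 6 h (0% and 7.69%). At 24 h it was above that of all genes (84.6%, all higher). Among the 7 with more than 50 CPM, all 7 were higher at 24 h, with a median of 0.81. Whether nuclear and mitochondrial members changed by different amounts was not tested.

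Of the 7 genes above 50 CPM, the first 2 on the map had the largest changes. mt-Nd1, a complex I subunit, read 2602, 2203 and 2480 CPM in MCC CD69-hi at 24 h and 569, 491 and 795 CPM in NP (1.97 ± 0.22, adjusted p = 4.36e-11). mt-Nd2, its neighbour (MT:3914-4951), read 1342, 1139 and 1230 CPM in MCC CD69-hi and 395, 344 and 566 CPM in NP (1.51 ± 0.23, adjusted p = 1.92e-07). In both genes every MCC CD69-hi library stood above every NP library by a wide margin.

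mt-Co1 (MT:5328-6872), the catalytic subunit of complex IV and the most abundant member, read 5100, 4337 and 4996 CPM in MCC CD69-hi, against 2786, 2394 and 3933 CPM in NP (0.66 ± 0.20, adjusted p = 0.00318). mt-Cytb, the cytochrome b of complex III at the far end of the map, read 1785, 1504 and 1594 CPM in MCC CD69-hi, against 986, 903 and 1374 CPM in NP (0.58 ± 0.19, adjusted p = 0.00859), a call lost once NP 24 h replicate 2 was left out (adjusted p = 0.0679). In both the gap to the highest NP library was small. The complex I genes mt-Nd4, mt-Nd5 and mt-Nd6 had log2 fold changes of 0.89, 0.81 and 0.79, all called. The genes mt-Nd5 (MT:11742-13565) and mt-Nd6 (MT:13552-14070) overlap at their ends on opposite strands, and since the strand setting of the counting is not given in the sources used here, their reads may be mixed.

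The 2 ribosomal RNAs, which precede mt-Nd1 on the same strand and are no members, changed like the first genes. mt-Rnr1 (MT:70-1024) stood at 356 ± 50.4 CPM in MCC CD69-hi at 24 h and 101 ± 23.7 CPM in NP (1.81 ± 0.24), and mt-Rnr2 (MT:1094-2675) at 937.5 ± 238.2 and 340.2 ± 77.4 CPM (1.46 ± 0.24). Both were chosen for their position on the map, and the library preparation selected for poly-A tails.

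Low counts limited the other 6 mitochondrial genes. The median level over all libraries was 3903 TPM for mt-Co1, 2067 for mt-Cytb, 1883 for mt-Nd1, 1218 for mt-Nd2, 932 for mt-Nd5, 641.5 for mt-Nd4 and 614.5 for mt-Nd6, but 48.8 for mt-Co2, 38.1 for mt-Atp6, 31.7 for mt-Co3, 7.36 for mt-Nd4l, 5.87 for mt-Nd3 and 5.13 for mt-Atp8. Genes cut from the same long transcript thus differed widely in counted level. On the map mt-Atp8 (MT:7766-7969) overlaps mt-Atp6 (MT:7927-8607), and mt-Nd4l (MT:9877-10173) overlaps mt-Nd4 (MT:10167-11544). Their counts may therefore not be those of separate transcripts. The nuclear pseudogene Gm10925 (chromosome 1, 24613971 to 24614651), which RefSeq lists with the synonym mt-Atp6 and which has the same length of 681 bases, had a median of 30.2 CPM against 20.4 CPM for mt-Atp6 itself. How reads that match both copies were assigned is not given in the sources used here. The values of mt-Co2, mt-Co3, mt-Atp6, mt-Atp8, mt-Nd3 and mt-Nd4l are therefore uncertain. Whether nuclear copies affect the counts of the other mitochondrial genes was not tested. As counted, mt-Co2, mt-Co3, mt-Atp6 and mt-Nd3 were higher at 24 h (1.10, 1.13, 0.84 and 2.33), and mt-Nd4l and mt-Atp8 were not called (0.65 and -0.15). The call of mt-Atp6 was lost without NP 24 h replicate 1 (adjusted p = 0.0887).

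At 6 h mt-Nd1 was the single gene called, with 1479, 1716 and 1799 CPM in MCC CD69-hi and 1363 and 662 CPM in NP (0.72 ± 0.24, adjusted p = 0.012). The NP libraries differed from each other about as much as the groups did, and without NP 6 h replicate 2 the change was 0.29 (adjusted p = 0.46). Without NP 6 h replicate 1, 4 mitochondrial members were called at 6 h.

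**Figure D4:**
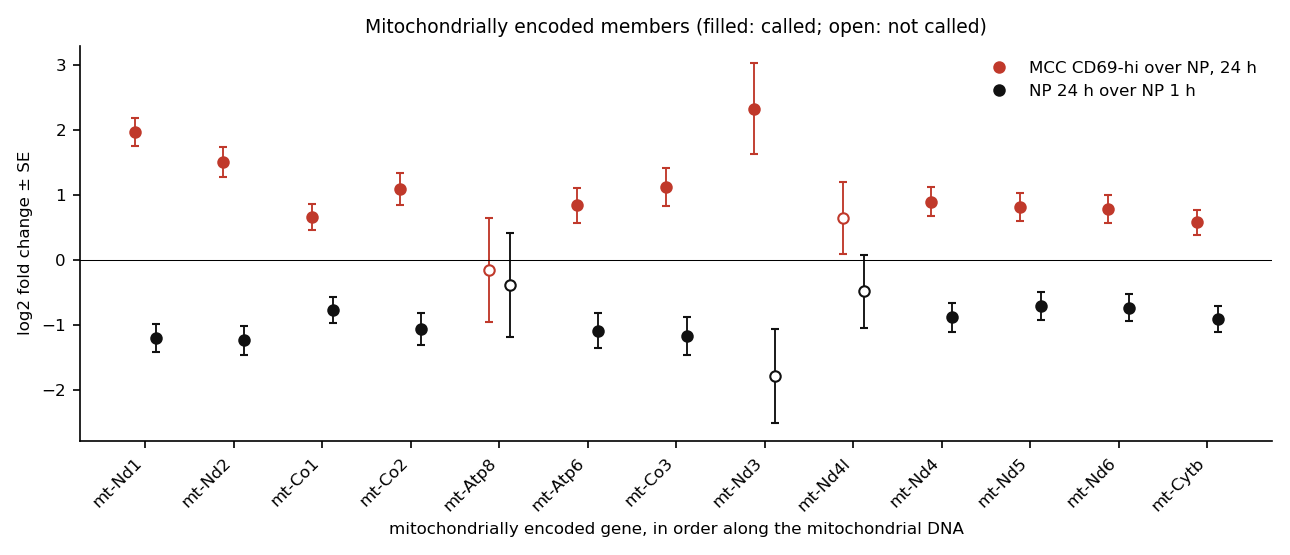
Log2 fold change with SE of the 13 mitochondrially encoded members, ordered along the mitochondrial DNA, for MCC CD69-hi over NP at 24 h (red) and for NP at 24 h over NP at 1 h (black); the 2 comparisons share the NP libraries of 24 h. mt-Nd1 and mt-Nd2 lie above mt-Co1 and the genes from mt-Nd4 to mt-Cytb in the first comparison (1.97 and 1.51 against 0.58 to 0.89), and the points of low-count genes have wide errors.

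A ratio of 2 mitochondrial genes within a library does not depend on the scaling between libraries. The pair mt-Nd1 and mt-Cytb joins the largest and the smallest change against NP at 24 h among the 7 genes above 50 CPM (1.97 and 0.58). That its ratio set MCC CD69-hi apart from NP at 24 h therefore follows from those changes and is no separate result. mt-Nd1 over mt-Cytb was 1.46, 1.46 and 1.56 in MCC CD69-hi at 24 h and 0.577, 0.543 and 0.578 in NP. In MCC+GP CD69-hi it was 1.53 ± 0.0622 at 24 h, in MCC CD69-lo 0.584 ± 0.0346 and in GP 0.568 ± 0.0191 (SD, n = 3 each). At 6 h it was 0.772 ± 0.0248 in MCC CD69-hi (n = 3) and 0.534 ± 0.0408 in NP (n = 2), and at 1 h 0.773 ± 0.0129 and 0.696 ± 0.0172 (n = 3 each). MCC CD69-hi was above NP without overlap at all 3 times.

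Other pairs of genes were set side by side in the same way. mt-Nd1 over mt-Co1 was 0.505 ± 0.00746 in MCC CD69-hi at 24 h and 0.204 ± 0.00154 in NP (SD, n = 3 each). MCC CD69-hi was above NP in this ratio without overlap at 1, 6 and 24 h. mt-Nd2 over mt-Cytb was 0.760 ± 0.0103 in MCC CD69-hi at 24 h and 0.398 ± 0.0157 in NP, again without overlap. mt-Co1 over mt-Cytb was 2.96 ± 0.153 in MCC CD69-hi and 2.78 ± 0.112 in NP, with overlapping spreads. The unequal change thus lay with mt-Nd1 and mt-Nd2 relative to both of the other genes, and a ratio does not show which gene changed.

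**Figure D5:**
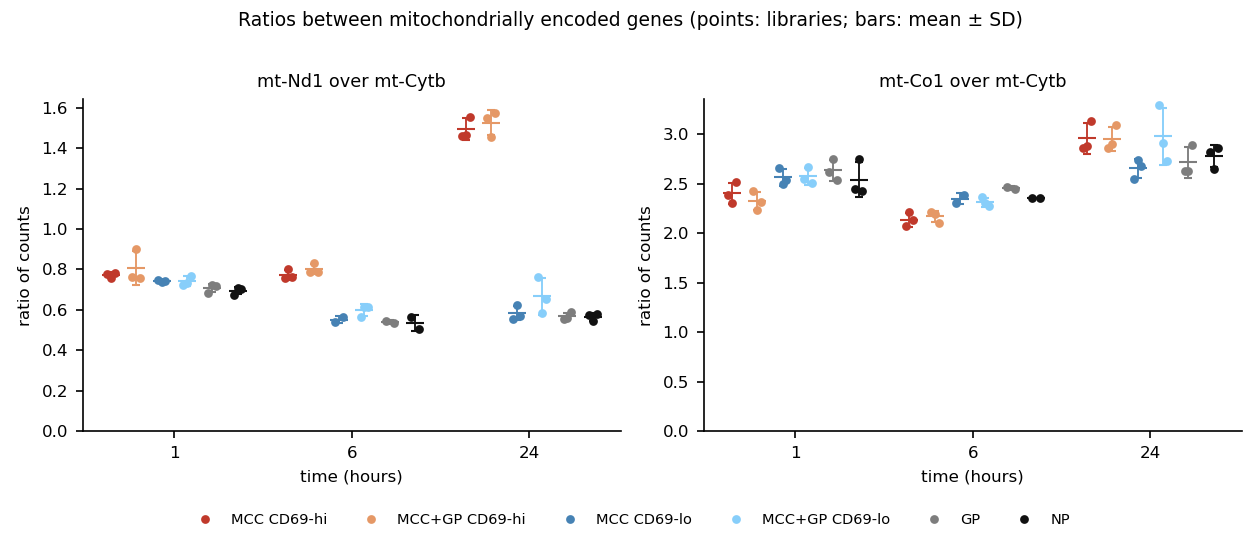
Ratio of counts of mt-Nd1 to mt-Cytb (left) and of mt-Co1 to mt-Cytb (right) in each library by group and time in hours, with mean and SD. The left ratio stands at 1.45 to 1.57 in the CD69-high libraries of 24 h, above every other library, and the right ratio shows no such gap.

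Whether the change against NP differed between times was tested gene by gene, as the difference of the 2 changes. From 1 to 6 h, 30 nuclear members differed, 27 upward and 3 downward, and 0 mitochondrial members did (0 with DESeq2). Of all genes 29.9% differed, 16.8% upward and 13% downward. The share of the 101 members, 29.7%, was near that of all genes, and their direction leaned upward. From 6 to 24 h, 38 nuclear and 2 mitochondrial members differed, together 39 upward and 1 downward (39.6% of the 101 members). Of all genes 22.9% differed, 13.7% upward and 9.21% downward. The 2 mitochondrial genes were mt-Nd1, whose change was larger at 24 h by 1.26 ± 0.32 (adjusted p = 0.0025), and mt-Nd2, by 0.93 ± 0.34 (adjusted p = 0.0392). The counts leaned on the NP libraries of 6 h: the 30 became 14 without replicate 2 and the 38 became 8 without replicate 1, while the fit with a B cell RNA term called 12 in place of 38.

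Within MCC CD69-hi itself, 37 nuclear members were higher and 5 lower at 6 h than at 1 h (median 0.45), where 40.6% of all genes were called, 22.2% higher and 18.5% lower. One of the 5 was Cox7a1, whose fall rested on MCC CD69-hi 1 h replicate 1. None of the 13 mitochondrial members was called (median -0.16, 0 at an unadjusted p under 0.05, 1 with DESeq2). From 6 to 24 h 51 nuclear members were higher and 2 lower (median 0.59, with 38.2% of all genes called, 21.3% higher and 16.9% lower), and 1 mitochondrial member, mt-Nd1, was higher (0.54 ± 0.21, adjusted p = 0.0375; mitochondrial median -0.03). With a B cell RNA term in the fit the 53 nuclear calls became 16, and the summed B cell RNA was 55.0 ± 34.1 CPM at 24 h and 638.5 ± 266.7 CPM at 6 h. The libraries of the 2 times did not overlap in this sum (31.8 to 94.2 CPM at 24 h and 330.8 to 801.5 CPM at 6 h). That term therefore cannot clearly tell the part of B cell RNA in these calls from that of time.

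In cells without peptide the mitochondrial members fell with time. In NP at 24 h against 1 h, 10 of 13 mitochondrial members were lower and 0 higher (median -0.91), and 18 nuclear members were lower and 2 higher (median -0.32), where 24% of all genes were called, 11.3% higher and 12.6% lower. mt-Nd2 averaged 435 ± 116 CPM in NP at 24 h and 1026 ± 220 CPM at 1 h (-1.24 ± 0.23, adjusted p = 3.9e-05), and mt-Nd1 618 ± 158 and 1415 ± 306 CPM (-1.19 ± 0.22). All 7 mitochondrial members above 50 CPM were lower, with a median of -0.88. The nuclear calls ranged from 5 without NP 1 h replicate 1 to 28 over the libraries left out, so they rest much on that library, and the mitochondrial calls from 6 to 11. Ndufaf3 (1.31) and Ndufs7 (0.64) were the 2 nuclear genes higher at 24 h. Among the lower nuclear genes were Uqcrb (-0.95), Uqcrfs1 (-0.71) and Uqcrc2 (-0.54) of complex III. Uqcrq of the same complex was also lower, with 24.95 ± 5.93 CPM in NP at 24 h and 49.8 ± 12.4 CPM at 1 h. Uqcrc1 (-0.33) and Uqcrh (-0.53) were not called.

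MCC CD69-lo cells, which received the agonist peptide but lay under the CD69-high gate, differed little from NP at first. At 1 h 0 of the 101 members were called, where 3.15% of all genes were, 2.72% higher and 0.436% lower, with 1 nuclear member at an unadjusted p under 0.05 and 1 called with DESeq2. At 6 h 0 were called against 2.12% of all genes, 2.12% higher and 0% lower, with 0 at an unadjusted p under 0.05 and 0 with DESeq2. At 24 h 21 of 88 nuclear members were higher and 0 lower (median 0.38), where 18.5% of all genes were called, 9.83% higher and 8.65% lower. No mitochondrial member was called at 24 h (median 0.32, 3 at an unadjusted p under 0.05, 1 with DESeq2).

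The 21 genes were 8 of complex I, 2 of III, 5 of IV and 6 of V. Ndufa1, an accessory subunit of complex I, averaged 25.8 ± 3.56 CPM in MCC CD69-lo at 24 h and 11.7 ± 1.17 CPM in NP (1.14 ± 0.26, adjusted p = 8.36e-04). Ndufa5, of its peripheral arm, averaged 24.6 ± 11.3 and 9.52 ± 1.76 CPM (1.30 ± 0.31), and its call was lost without MCC CD69-lo 24 h replicate 3. Cox7a2 (0.88) and Atp5g1 (1.05) were also higher. The count of 21 was 9 without NP 24 h replicate 1 and 33 with DESeq2.

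Cox6a2, the muscle form of a complex IV subunit, stood apart in the CD69-low cells of 24 h. It read 16.1, 5.83 and 4.07 CPM in MCC CD69-lo and had no count in NP, at least 48.7-fold higher against a floor of 3 counts over the NP group. In MCC CD69-hi at 24 h it read 0.141, 0.306 and 0.136 CPM, on 4 counts. Myeloid and dendritic genes summed to 303 ± 95.3 CPM in MCC CD69-lo, 47.4 ± 7.89 CPM in MCC CD69-hi and 117 ± 91.4 CPM in NP at 24 h, and MHC class II genes to 1043 ± 157, 102 ± 59.6 and 272 ± 151 CPM in the same groups. Their part in this result was not tested. In bulk RNA, fewer cells of a type and less RNA per cell cannot be told apart.

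Between the sorts of cells given MCC, MCC CD69-hi against MCC CD69-lo, 5 nuclear members were higher and 1 lower at 1 h, where 12.5% of all genes were called, 3.46% higher and 9.06% lower. At 6 h 53 were higher and 6 lower (42.4% of all genes, 19.9% and 22.5%), and at 24 h 68 and 4 (61.7%, 29.1% and 32.6%). The 1 h count moved with the fit, from 2 in a fit of these groups alone to 20 with DESeq2. Mitochondrial members were called in 0, 1 and 8 cases, all higher, and the 8 at 24 h became 4 with DESeq2. mt-Nd1 averaged 2428 ± 204 CPM in MCC CD69-hi at 24 h and 798 ± 173 CPM in MCC CD69-lo (1.60 ± 0.22, adjusted p = 1.18e-08).

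Ndufaf6, an assembly factor of complex I, had the largest rise between the sorts at 24 h, with 19.7, 16.2 and 17.1 CPM in MCC CD69-hi and 0, 2.27 and 1.53 CPM in MCC CD69-lo (3.47). Cox7a2l was again lower in MCC CD69-hi (81.9 ± 2.14 CPM against 207 ± 21.0 CPM in MCC CD69-lo; -1.34 ± 0.24), and Atp5sl as well (24.8 ± 1.24 against 59.8 ± 5.55 CPM; -1.26 ± 0.19). MCC CD69-hi and MCC CD69-lo were sequenced to 7551281 to 8642984 and 941304 to 2870776 counts per library at 24 h.

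GP alone left no member called against NP. At 1, 6 and 24 h 0 of 101 members passed edgeR's quasi-likelihood test, and DESeq2 called 0 as well, where 0%, 0% and 0.00581% of all genes were called (0.00581% higher and 0% lower at 24 h). At an unadjusted p under 0.05 there were 0, 1 and 2 nuclear members and 0 mitochondrial members at each time. The nuclear members summed to 7411 ± 765, 6711 ± 1657 and 6694 ± 1124 TPM in GP, against 7381 ± 1048, 7171 ± 492 and 6548 ± 860 TPM in NP. A test that finds no call does not show that the groups were alike.

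GP added to MCC changed no member past the threshold in the CD69-high cells. Set against MCC CD69-hi, the MCC+GP CD69-hi cells had 0 members called at 1, 6 and 24 h, where 0.68%, 0% and 0% of all genes were (0.227% higher and 0.453% lower at 1 h). At 1 h, when the libraries of both groups were shallow, 15 nuclear members had an unadjusted p under 0.05 and DESeq2 called 6. At 6 and 24 h both counts were 0. The median nuclear log2 fold changes were 0.07, 0.03 and 0.06. Summed nuclear TPM was 8450 ± 572, 10440 ± 596 and 16620 ± 511 in MCC+GP CD69-hi, against 8173 ± 278, 10410 ± 554 and 16230 ± 65.5 in MCC CD69-hi (SD, n = 3 each), so the means differed by less than the SD of MCC+GP CD69-hi at each time, though at 24 h by more than that of MCC CD69-hi.

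In the CD69-low sorts GP with MCC against MCC gave 0 calls at 1 and 6 h (0% of all genes; 0 and 2 nuclear members at an unadjusted p under 0.05; 0 with DESeq2). At 24 h 6 nuclear members were higher and 5 lower, where 19.3% of all genes were called, 7.37% higher and 12% lower. Ndufc2 (1.44) and Uqcr10 (0.87) were higher without overlap, and Ndufs1 (-1.35), Uqcrh (-1.34) and Cox7a2l (-1.25) lower. These MCC+GP CD69-lo libraries were the shallowest of the series, with myeloid and dendritic genes at 1961 ± 494 CPM against 303 ± 95.3 CPM in MCC CD69-lo, B cell genes at 1497 ± 273 against 488 ± 196 CPM and T cell genes at 1897 ± 612 against 3394 ± 210 CPM. Their part in these 11 calls was not tested, and a fit of these groups alone called 0.

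Across the 18 groups most nuclear members peaked in the CD69-high cells of 24 h, 55 in MCC+GP CD69-hi and 15 in MCC CD69-hi. The share of all genes that peaked there was not counted, so this does not show that the members differ from other genes. These 2 groups were not told apart by the test above, so the order between them has no weight.

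Other genes of the pathway were followed as lists in MCC CD69-hi against NP at 24 h, to be read against the 29.2% higher and 28.7% lower of all genes. Of 25 electron carriers and chain subunits outside the symbol rule, 17 were higher and 1 lower (median 1.55). Cycs, the soluble cytochrome c that links complexes III and IV, averaged 216 ± 9.41 CPM in MCC CD69-hi and 18.7 ± 3.95 CPM in NP (3.52 ± 0.22), and Cyc1, the cytochrome c1 of complex III, 241 ± 6.56 and 70.1 ± 4.36 CPM (1.78 ± 0.15). Coq7, an enzyme of ubiquinone synthesis, rose by 3.66 ± 0.39, whereas Coq8a, a kinase-like factor of the same synthesis, fell by 3.13 on the log2 scale (SE 0.37).

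Of 41 assembly factors outside the rule 26 were higher and 4 lower (median 1.13). Uqcc2, for complex III, and Tmem70, for complex V, rose by 2.26 ± 0.26 and 2.25 ± 0.25, and Surf1, for complex IV, fell by 1.18. Of 31 genes for transcription and RNA handling of the mitochondrial DNA, 22 were higher and 2 lower (median 1.19). Lrpprc, which stabilises mitochondrial mRNA, averaged 271 ± 22.4 CPM in MCC CD69-hi and 63.1 ± 8.71 CPM in NP (2.10 ± 0.17). Tbrg4 and Fastkd2, of a family of mitochondrial RNA-binding proteins, rose by 2.31 ± 0.18 and 2.55 ± 0.23. Tfam, which packages the DNA and starts transcription, rose less (0.73 ± 0.17), Polrmt, the RNA polymerase, was not called (0.11), and Polg2, a subunit of the DNA polymerase, fell by 1.72.

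Of 17 nuclear regulators of mitochondrial genes 6 were higher and 7 lower (median -0.18), the only list without a positive median among these 6. The regulators named here are ones that rose and Nrf1. None of the 7 lower ones is named, so the named genes do not stand for the list. Myc averaged 817 ± 62.9 CPM in MCC CD69-hi at 24 h and 59.8 ± 7.76 CPM in NP (3.77 ± 0.25), and Pprc1, a coactivator related to PGC-1, 340.1 ± 8.05 and 84.9 ± 1.61 CPM (2.00 ± 0.20). Gabpa and Esrra rose by 0.76 ± 0.15 and 0.59 ± 0.23, and Nrf1 was not called (-0.18). Of 19 genes of the citric acid cycle 18 were higher and 0 lower (median 1.39), with Idh3a at 3.19 ± 0.18 and Cs, citrate synthase, at 1.70 ± 0.14. Of 20 mitochondrial carriers and porins 13 were higher and 1 lower (median 0.91), among them Slc25a5, the ATP and ADP exchanger, at 1080 ± 36.7 CPM in MCC CD69-hi and 121 ± 18.9 CPM in NP (3.16 ± 0.21), and Vdac1, a pore of the outer membrane (2.61 ± 0.14).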

How the data were processed

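Per the labels' protocols, total RNA of sorted cells was poly-A selected and sequenced as paired reads. Per the submitters' processing notes, the authors used bcl2fastq 2.20, STAR 2.6.1c, HTSeq 0.9.1 and the mm10 build; strand and multimapping settings are not given in the sources used here. The deposited table of raw counts, not normalized, was used for every test. The authors' second deposited table is headed TPM; within a library it follows counts per length (2501 genes compared, coefficient of variation at most 0.0185%), but its columns total 9986 to 9996, so each was rescaled to the usual TPM total. Replicates differed by more than counting error (chi-square per degree of freedom 3.91 to 19.28), so none is a copy.

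Counts of all 51 libraries were scaled by TMM, filtered with filterByExpr by group (17211 genes) and fitted in edgeR 4.0.16 (R 4.3.3, limma 3.58.1) with each group as 1 coefficient, after the code was tested on simulated data. Quasi-likelihood F tests were two-sided, with Benjamini-Hochberg adjustment over all genes at 0.05, and all adjusted p-values are from them unless another tool is named. Fold changes are log2 ± SE. Floors are 3 counts and cover counting error only. The members, gene lists and tests were chosen with earlier results of these data known. Named by rule were all mitochondrial members, a panel of nuclear members, up to 3 rising and 3 falling members of at least 5 CPM without overlap per comparison, and members moving against their complex; other genes were named after their values were seen. Values of 1 complex I gene are not reported here.

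Alternatives were RLE size factors, no filter, DESeq2 1.42.0, only the compared groups, a replicate block by plate round, mitochondrial genes out of library sizes, B cell RNA as a covariate, and each library left out with the dispersion trend of the complete fit kept. Leaving out the 3 shallowest libraries was chosen after seeing the data.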

Additional observations from a re-analysis of the deposited data

Results flagged for a closer look

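Results below were picked out because the change of MCC CD69-hi against NP differed between times by a test of the difference itself. No explanation was tested. From 1 to 6 h, 30 of 88 nuclear members differed, 27 upward and 3 downward. Of all genes 29.9% differed, 16.8% upward and 13% downward. The 30 calls, 29.7% of the 101 members tested, were thus near the share of all genes, and leaned upward. The change was larger at 6 h than at 1 h for Ndufaf4 (by 2.39 on the log2 scale, adjusted p = 1.25e-07), Atp5g1 (2.37, adjusted p = 9.09e-07) and Uqcrq (2.12, adjusted p = 4.81e-06). It was smaller or more negative for Ndufaf3 (-1.64, adjusted p = 0.0241), Ndufv3 (-1.22, adjusted p = 0.00883) and Cox7a2l (-1.09, adjusted p = 0.0156). Ndufaf3, an assembly factor of complex I, was itself called at neither time (0.80 at 1 h and -0.84 at 6 h). From 6 to 24 h, 38 nuclear members and 2 mitochondrial members, mt-Nd1 and mt-Nd2, differed, together 39 upward and 1 downward. Of all genes 22.9% differed, 13.7% upward and 9.21% downward. The change was larger at 24 h for Ndufb10 (1.59, adjusted p = 6.12e-05), Ndufa8 (1.58, adjusted p = 1.15e-04) and Ndufaf7 (1.51, adjusted p = 0.00619), and more negative for Atp5sl (-0.82, adjusted p = 0.0177). Each comparison uses the NP group of 6 h with 2 libraries.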

How the results depend on the processing

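The results are limited by the depth of MCC+GP CD69-lo at 24 h and of both CD69-high groups at 1 h. They are also limited by 2 NP libraries at 6 h and by the low counts of 6 mitochondrial genes. Over the alternatives, 3637 gene values kept their direction and side of the threshold, 499 lost the call and 1 reversed. The cause of the changes below was not tested. In MCC CD69-hi at 6 h against 1 h, Cox7a1 ran from -3.519 without MCC CD69-hi 1 h replicate 3 to 0.672 (adjusted p = 0.789) without replicate 1. The log2 ratio of complex II in MCC CD69-hi over NP at 6 h, -0.407 from summed TPM, was 0.431 from the median over its members. In MCC CD69-hi against NP at 24 h the median of all genes was -0.139, and -0.285 with RLE size factors, where the nuclear median was 1.315 and the mitochondrial median 0.692.

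In MCC CD69-hi against NP at 1 h, the 14 nuclear calls were 5 with B-cell RNA as a covariate, 22 without the 3 shallowest libraries and 24 with DESeq2, and ran from 7 to 18 with a library left out. The 0 mitochondrial calls were 1 with only the compared groups and ran from 0 to 2 with a library left out. At 6 h the 1 mitochondrial call was 2 with no filter on low counts and ran from 0 to 4 with a library left out.

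In MCC CD69-lo against NP, DESeq2 called 1 nuclear member in place of 0 at 1 h, and at 24 h 33 in place of 21 and 1 mitochondrial member in place of 0. With a library left out, the 24 h counts ran from 9 to 28 nuclear and from 0 to 1 mitochondrial members.

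In MCC CD69-hi against MCC CD69-lo at 1 h, the 6 nuclear calls were 11 with RLE size factors, 2 with only the compared groups and 20 with DESeq2, and ran from 2 to 6 with a library left out. At 6 h the nuclear calls ran from 39 to 60 with a library left out. The 1 mitochondrial call of 6 h was 0 with RLE size factors, 0 with the replicate block by plate round, 0 with B-cell RNA as a covariate, 0 without the 3 shallowest libraries and 0 with DESeq2, 2 with no filter on low counts and 2 with only the compared groups, and ran from 0 to 1 with a library left out. At 24 h the 8 mitochondrial calls were 4 with RLE size factors, 3 with only the compared groups and 4 with DESeq2, and ran from 5 to 9 with a library left out.

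In MCC+GP CD69-hi against the same sort with MCC at 1 h, the 0 nuclear calls were 1 with RLE size factors, 1 without the 3 shallowest libraries and 6 with DESeq2, and ran from 0 to 1 with a library left out. In the CD69-lo sorts at 24 h, the 11 nuclear calls were 18 with RLE size factors, 0 with only the compared groups and 21 with DESeq2, and ran from 6 to 15 with a library left out, while the 0 mitochondrial calls ran from 0 to 1.

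Within MCC CD69-hi, the 42 nuclear calls of 6 h against 1 h were 25 with only the compared groups and ran from 25 to 42 with a library left out, and the 0 mitochondrial calls were 1 with only the compared groups and 1 with DESeq2. For 24 h against 6 h the 53 nuclear calls were 16 with B-cell RNA as a covariate and ran from 34 to 45 with a library left out. The 1 mitochondrial call was 2 with no filter on low counts, 0 with B-cell RNA as a covariate, 0 without the 3 shallowest libraries and 3 with only the compared groups, and ran from 0 to 1 with a library left out. In NP at 24 h against 1 h, the 20 nuclear calls were 12 with RLE size factors and 31 with only the compared groups, and ran from 5 to 28 with a library left out, and the 10 mitochondrial calls ran from 6 to 11.

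For the differences between times, the 30 nuclear calls from 1 to 6 h were 19 with only the compared groups and ran from 14 to 34 with a library left out. From 6 to 24 h the 38 nuclear calls were 12 with B-cell RNA as a covariate and ran from 8 to 35 with a library left out. The 2 mitochondrial calls were 1 with RLE size factors, 5 with the replicate block by plate round, 4 without the 3 shallowest libraries, 1 with only the compared groups and 4 with DESeq2, and ran from 0 to 9 with a library left out.

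Plate rounds were read from well names in the titles, not given as batches, and replicate numbers pair no samples. Deviations of libraries from their group means correlated at 0.081 within and -0.037 between plate rounds (medians). With the replicate block, MCC CD69-hi against NP at 24 h gave 76 nuclear members higher and 5 lower, against 75 and 4 without it. The block moved no other count of calls by over 1.5 times than the 2 mitochondrial ones named above.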
